A study of Mus musculus with 2 samples.

Results

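The IgLON genes are a small family of immunoglobulin adhesion genes, and the 5 mouse members Negr1, Lsamp, Ntm, Opcml and Iglon5 were examined among the 32286 features counted in nuclei of the mouse vagus nerve ganglia. Members were chosen by their symbols, and the family was chosen from measured values of these same nuclei, because its genes differed between kinds of neurons. Their levels are therefore given as a description, with no test. Single-nucleus RNA sequencing had been run on flash-frozen ganglia of C57BL/6J mice with the Rosa26-floxed-STOP-Cas9-eGFP genotype, on a standard chow diet. All mice had received AAVrg-Cre, a retrograde virus that carries Cre recombinase, in the liver 4 weeks earlier. They were young adults when bought, and no library of uninjected mice was analysed here. A pool of 14 ganglia from 7 females gave the female library and a pool of 16 ganglia from 8 males gave the male library. With 1 library per sex, library and sex cannot be told apart, and animals within a pool cannot be separated.

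IgLON proteins are anchored in the outer leaflet of the cell membrane by a glycosylphosphatidylinositol (GPI) lipid and carry immunoglobulin domains. They bind one another, both like with like and across the family, and regulate neurite outgrowth and synapse number. NEGR1 is also known from variants near the human gene that are associated with body weight. Sensory neurons of the vagus fall into the placode-derived nodose type and the crest-derived jugular type, which expresses the transcription factor Prdm12.

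The female library held 3791 nuclei and 17435300 unique molecular identifiers (UMIs, each a captured RNA molecule), and the male library held 4923 nuclei and 27529730 UMIs. The median nucleus had 2381 and 2658 UMIs, respectively. The libraries were given their sex from the numbers of nuclei that the study states. As a check, Xist had 13424 UMIs among female nuclei and 7 among male nuclei, and 4 Y-linked genes summed to 14 and 10173. The libraries shared 8 barcode sequences, and the eGFP transgene had 1 UMI over all nuclei. Clusters were rebuilt without the 5 members and named from marker genes, and neuron-like clusters were called nodose-like or jugular-like from marker genes of the types. Prdm12, a marker used for these names, stood at 1.44 UMIs per 10000 UMIs in jugular-like and 0.104 in nodose-like nuclei. Gabra6, a receptor subunit of cerebellar granule cells and also a naming marker, stood at 3.86 in granule-like and 0.0165 in nodose-like nuclei. Neither contrast is a check of the names. There were 872 nodose-like, 502 jugular-like, 143 sympathetic neuron-like and 393 granule-like nuclei, and 757 neuron-like nuclei stayed unnamed. The nodose-like name is weaker for 2 clusters, since in neuron 2 only 2 of 8 nodose markers passed 1.5-fold and in neuron 1 the sympathetic list (mean log2 fold 0.97) stood above the nodose list (0.52). The granule-like nuclei came mostly from the female library, with 370 female and 23 male nuclei, and a cerebellar cell type is not a part of a vagal ganglion. Marker lists of satellite glia and of non-myelinating Schwann cells did not separate the glial clusters, which were joined as 1376 non-myelinating glia-like nuclei beside 1251 myelinating Schwann cell-like nuclei.

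On the mm10 build, all 5 members were protein-coding genes of GENCODE M21. Negr1 lay on chromosome 3 at 156561794 to 157316445 on the plus strand and spanned 755 kb. Lsamp lay on chromosome 16 at 39984361 to 42181679 on the plus strand and was the longest member, with 2197 kb. Opcml, on chromosome 9 at 27790775 to 28925410 on the plus strand, and Ntm, at 28994750 to 29963141 on the minus strand, were neighbours whose 3′ ends were 69.3 kb apart. Iglon5 lay on chromosome 7 at 43472904 to 43490075 on the minus strand and spanned 17.2 kb. Exons made up 0.783% to 1.39% of the span of the 4 long members and 15.3% of that of Iglon5. Introns were counted, so that a long gene offers more sequence to capture.

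The 250 bases before the RefSeq start (GRCm38.p6) are shown for the pair with the most UMIs, Negr1, which was higher in nodose-like nuclei, and Lsamp, which was higher in jugular-like nuclei. They are written 5′ to 3′ on the strand of the gene, with each CG pair in capitals. They cover chr3:156561544-156561793 and, for the outer of 2 Lsamp starts, chr16:39984114-39984363, both on the plus strand.
Negr1: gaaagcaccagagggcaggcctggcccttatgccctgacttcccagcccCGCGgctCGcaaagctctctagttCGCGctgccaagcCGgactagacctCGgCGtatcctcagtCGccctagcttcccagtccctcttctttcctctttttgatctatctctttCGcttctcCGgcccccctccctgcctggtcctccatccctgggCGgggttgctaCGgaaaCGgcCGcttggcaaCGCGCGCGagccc
Lsamp: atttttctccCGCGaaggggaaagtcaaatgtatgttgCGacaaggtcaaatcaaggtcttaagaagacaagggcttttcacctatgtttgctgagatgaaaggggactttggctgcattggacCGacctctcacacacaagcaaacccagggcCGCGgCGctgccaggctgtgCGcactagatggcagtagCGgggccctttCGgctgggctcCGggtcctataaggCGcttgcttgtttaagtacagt
The Negr1 stretch held 19 CG pairs, more than 80.3% of 32851 stretches of the same length before RefSeq starts. The Lsamp stretch held 12, more than 66.5% of them. Neither TATAAA nor TAATTA, searched on both strands, was found in either stretch, and these motifs were present in 12.4% and 4.84% of all. The first exon of 4930570G19Rik, a gene on the opposite strand, lies partly within the Negr1 stretch. The libraries were made from the 3′ end of RNA, so that the start used in each cell type was not measured.

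Negr1 had 48061 UMIs in all and separated the sensory neurons by type. Its level in nodose-like nuclei was 27.0 UMIs per 10000 UMIs among female nuclei (95% Poisson interval 26.4 to 27.5) and 25.9 among male nuclei (25.5 to 26.2). In jugular-like nuclei it was 2.85 (2.64 to 3.07) and 1.37 (1.27 to 1.48). Both libraries thus had Negr1 high in nodose-like and low in jugular-like nuclei, and all intervals cover counting error only. The ratio was 9.46-fold in female and 18.9-fold in male nuclei, or 3.24 and 4.24 on the log2 scale, with intervals of 3.13 to 3.36 and 4.12 to 4.35. Each cluster of the class was on its side, since the 5 nodose-like clusters ranged from 14.8 to 37.9 and the 4 jugular-like clusters from 0.627 to 6.00.

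RNA set free from other cells gives UMIs in nuclei that do not make a gene, and macrophage-like nuclei were used as a measure of it. Negr1 was at 4.43 (3.68 to 5.30) in female and 3.15 (2.54 to 3.86) in male macrophage-like nuclei, which was above its level in jugular-like nuclei of the same library. After each nucleus was thinned to 1000 UMIs, 69.8% of nodose-like nuclei had a Negr1 UMI (95% Clopper-Pearson interval 66.7 to 72.9), against 9.76% of jugular-like (7.31 to 12.7) and 24.6% of macrophage-like nuclei (19.6 to 30.2). As sequenced, the shares were 90.4%, 42.6% and 35.5%, at median depths of 8326, 10846 and 1802 UMIs. At equal depth the share of jugular-like nuclei was thus not above that of macrophage-like nuclei. Counted per nucleus the order was the reverse, with 1309 UMIs in 502 jugular-like and 213 in 273 macrophage-like nuclei, and the part of free RNA in the jugular-like level was not tested. The ratio of Negr1 to Lsamp UMIs was 1.05 in macrophage-like nuclei. It was 0.577 in myelinating Schwann cell-like, 0.475 in endothelial cell-like, 0.332 in barrier fibroblast-like and 0.276 in fibroblast-like nuclei. Whether macrophage-like nuclei are a pure measure of free RNA was not tested.

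Lsamp, which encodes the limbic system-associated membrane protein, was the most counted member with 100076 UMIs and was higher in jugular-like nuclei. In these it stood at 45.7 UMIs per 10000 UMIs for females (44.8 to 46.5) and 38.4 for males (37.8 to 39.0). In nodose-like nuclei it stood at 15.6 (15.1 to 16.0) and 11.9 (11.6 to 12.1). The log2 ratio of nodose-like over jugular-like was -1.55 (-1.60 to -1.50) for females and -1.69 (-1.73 to -1.65) for males, a level 2.93-fold and 3.23-fold higher in jugular-like nuclei. Thinned to 1000 UMIs, 81.5% of jugular-like nuclei had an Lsamp UMI, against 38.3% of nodose-like and 20.2% of macrophage-like nuclei.

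Opcml, which encodes an opioid-binding adhesion protein, was likewise higher in jugular-like than in nodose-like nuclei, at a lower level than Lsamp. It stood at 5.11 (4.82 to 5.40) and 4.65 (4.46 to 4.85) in jugular-like and at 1.85 (1.70 to 2.0) and 1.58 (1.49 to 1.68) in nodose-like nuclei of the female and male libraries. Both libraries gave about the same log2 ratio, with -1.47 (-1.61 to -1.32) and -1.56 (-1.66 to -1.45). Macrophage-like nuclei had 0.586 and 0.822, so that Opcml summed over nodose-like nuclei was above that level in both libraries. By cluster the classes overlapped. Nodose-like clusters ran from 0.538 (neuron 4) to 2.73 (neuron 9), and jugular-like clusters from 2.45 (neuron 15) to 10.4 (neuron 13). Over both libraries, neuron 4 was below the 0.708 of macrophage-like nuclei.

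Ntm, which encodes neurotrimin, was scarce in sensory neurons. It stood at 2.45 (2.25 to 2.66) in female and 0.761 (0.683 to 0.844) in male jugular-like nuclei, against 0.666 (0.579 to 0.762) and 0.136 (0.110 to 0.166) in nodose-like nuclei. The log2 ratio was -1.88 for females and -2.48 for males. The nodose-like levels were below those of macrophage-like nuclei of the same library (0.989 and 0.274), while the counts were 309 UMIs in 872 nodose-like and 35 in 273 macrophage-like nuclei. The part of free RNA in them was not tested. Most of the jugular-like UMIs, 536 of 930, came from 1 of the 4 clusters.

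Iglon5 had 391 UMIs over all nuclei. Its level was 0.107 (0.0877 to 0.129) in nodose-like and 0.0869 (0.0665 to 0.112) in jugular-like nuclei, and no UMI was found in 273 macrophage-like nuclei, which allows a level of up to 0.0531 (3 UMIs of the class). Its log2 ratio was 0.42 for females (-0.39 to 1.26) and 0.24 for males (-0.34 to 0.83), so that a difference was not detectable at this depth.

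Of the 5 members, 1 was at least 2-fold higher and 3 were at least 2-fold lower in nodose-like than in jugular-like nuclei in both libraries. Among the 16290 genes with at least 20 UMIs in these classes, 6.53% were higher and 5.58% lower by that rule. The members were chosen from this contrast, so nothing is read from their count beside these shares. The median log2 ratio was -1.53 over the members and 0.02 over all those genes.

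**Figure D1:**
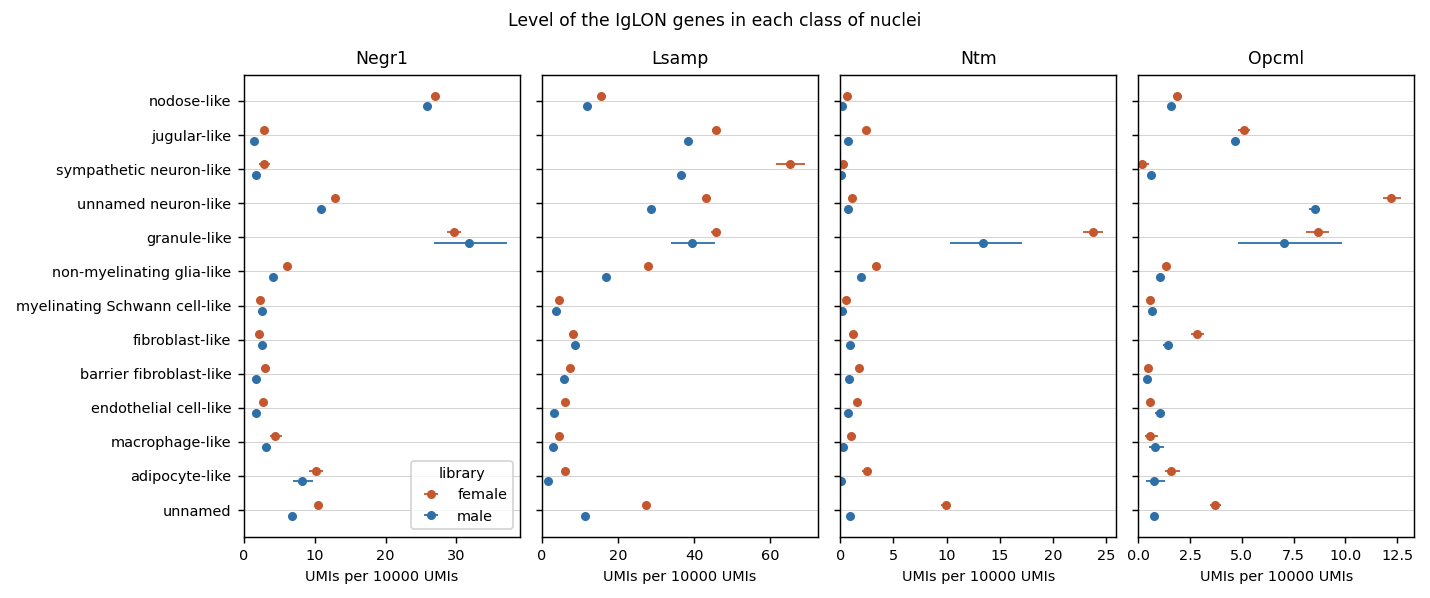
Level of 4 IgLON genes in each class of nuclei, as summed UMIs per 10000 UMIs (horizontal axis, a scale of its own for each gene), in the female (orange) and male (blue) library, with 95% Poisson intervals as bars. Negr1 sits at 25.9 and 27.0 in nodose-like nuclei, at 29.7 and 31.7 in granule-like nuclei and at 2.85 or less in jugular-like nuclei, where Lsamp is at 38.4 and 45.7, while Ntm is high in granule-like nuclei.

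Levels were also divided by gene length to set the members side by side, although it was not tested whether capture rises with span. Per 100 kb of gene span, Negr1 was at 3.47 UMIs per 10000 UMIs in nodose-like nuclei, Lsamp at 0.592, Opcml at 0.147 and Ntm at 0.0310. In jugular-like nuclei the order was Lsamp at 1.86, Opcml at 0.423, Negr1 at 0.247 and Ntm at 0.137. Negr1 was thus the leading long member in nodose-like nuclei and Lsamp in jugular-like nuclei on this scale. The short gene Iglon5, with 0.621 and 0.506, stood close to Lsamp and to Opcml on it, although these values rest on 110 and 61 UMIs. Without the division its levels were 0.107 and 0.0869, below those of every long member.

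Within the nodose-like class, the 2 clusters highest in Negr1 were also the 2 highest in Lsamp. In cluster neuron 4, led by Rmst and Eya4, both were high, with Negr1 at 37.9 and Lsamp at 25.5. In cluster neuron 9, led by Brinp3 and Tafa2, they stood at 27.0 and 30.2. The 3 other nodose-like clusters had Negr1 but little Lsamp. Neuron 2 and neuron 1, both with Cysltr2 and Hs3st4 among their leading genes, had Negr1 at 22.6 and 16.9 and Lsamp at 4.71 and 2.71. Neuron 11, led by Vip, a neuropeptide, and holding Cckar and Glp1r, receptors of gut hormones, had Negr1 at 14.8 and Lsamp at 3.90. For comparison, Lsamp in macrophage-like nuclei was at 3.58 (3.10 to 4.10), which neuron 2 exceeded (4.50 to 4.93) and neuron 11 (3.60 to 4.23) and neuron 1 (2.36 to 3.10) did not. Depth differed, with medians of 10138 UMIs in neuron 11, 3255 in neuron 1 and 1802 in macrophage-like nuclei. The part of free RNA in the Lsamp of these clusters was not tested. The order of Negr1 over the 5 clusters was the same in both libraries, from 39.0 and 37.4 in neuron 4 down to 14.2 and 15.0 in neuron 11. Lsamp in neuron 9 was the least even between libraries, at 50.6 (47.1 to 54.3) over 29 female nuclei and 25.4 (24.2 to 26.7) over 99 male nuclei.

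The jugular-like clusters all had Lsamp, at 26.1 in neuron 5 (led by Grik1 and Rtl4), 44.6 in neuron 10 (led by Gfra3, a receptor of the GDNF family), 53.9 in neuron 15 (led by Cdh9) and 59.6 in neuron 13. The last of these was led by Trpm8, the cold-sensing channel, and had the highest level of each long member in the class. Its Opcml was at 10.4 and its Negr1 at 6.00, and its Ntm was at 12.8 (11.6 to 14.1) for females and 3.13 (2.63 to 3.70) for males. Ntm, which was kept out of the clustering, was among its 10 leading genes. The 3 other jugular-like clusters had Ntm at 0.204 to 1.14. The 143 sympathetic neuron-like nuclei, 136 of them male, resembled neither type fully, with Lsamp at 39.0 (38.1 to 39.9), Negr1 at 1.81 (1.63 to 2.01) and Opcml at 0.597 (0.494 to 0.715). Over both libraries their Negr1 did not differ beyond counting error from the 1.87 (1.77 to 1.97) of jugular-like nuclei. Within the male library it was higher, at 1.72 (310 UMIs) against 1.37 (640 UMIs) in jugular-like nuclei. In the female library it was at 2.79 (48 UMIs) against 2.85.

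**Figure D2:**
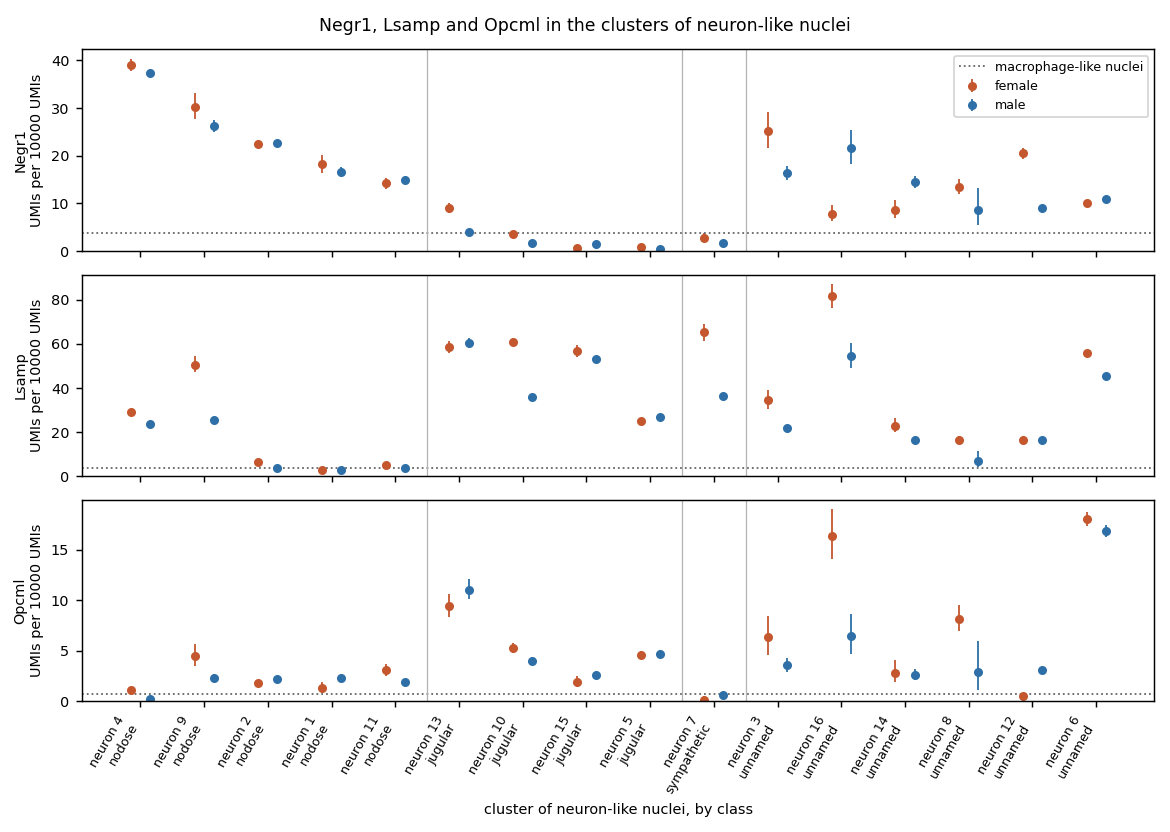
Negr1, Lsamp and Opcml (vertical axes, UMIs per 10000 UMIs) in the 16 clusters of neuron-like nuclei, set out by class and then by Negr1, in the female (orange) and male (blue) library with 95% Poisson intervals, and the level of macrophage-like nuclei as a dotted line. All 5 nodose-like clusters have Negr1 at 14.2 or more in both libraries, only 2 of them have Lsamp above 10, and all 4 jugular-like clusters have Lsamp at 25.0 or more.

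Cluster neuron 6, led by Tafa1 and Grm8, was left unnamed and had the highest Opcml of the 16 neuron-like clusters. Opcml stood at 18.0 (17.3 to 18.7) over 59 female and 16.8 (16.3 to 17.4) over 95 male nuclei of this cluster. Its Lsamp was high as well, at 55.9 (54.7 to 57.2) and 45.5 (44.5 to 46.5), and its Negr1 at 10.6 (10.2 to 10.9) lay between the levels of the nodose-like and jugular-like clusters. The libraries thus gave neuron 6 the same pattern of members.

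The granule-like nuclei had every long member at a high level. Ntm was at 23.7 (22.8 to 24.7) in the 370 female and 13.4 (10.3 to 17.1) in the 23 male granule-like nuclei, against 0.666 and 0.136 in nodose-like nuclei. This was 35.7-fold for females and 98.4-fold for males, with a denominator below the macrophage-like level. Negr1 was at 29.7 and 31.7, near its nodose-like level, with log2 ratios of granule-like over nodose-like of 0.14 (0.08 to 0.20) and 0.29 (0.05 to 0.53). Lsamp was at 45.6 and 39.4, with log2 ratios of 1.55 and 1.73, and Opcml at 8.66 and 7.02, with log2 ratios of 2.23 and 2.15. Of the members, 3 were at least 2-fold higher in both libraries and 0 lower, where 12.7% and 4.11% of 15361 genes were. As the family was chosen for these levels too, nothing is read from that count. Per 100 kb of span, Negr1 at 3.94, Ntm at 2.41 and Lsamp at 2.06 stood close together in this class, with Opcml at 0.757.

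**Figure D3:**
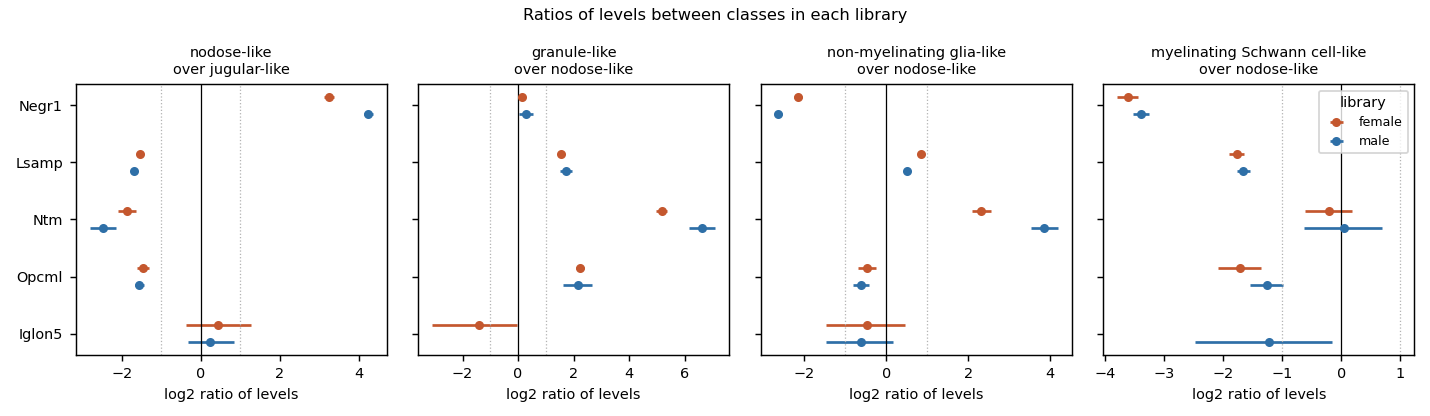
Log2 ratio of the level of each IgLON gene between 2 classes of nuclei (horizontal axis) in the female (orange) and male (blue) library, with exact 95% intervals, solid lines at 0 and dotted lines at 2-fold. A point is left out where a count was at or under 3 UMIs. Negr1 alone lies to the right of 2-fold in the first panel, and Ntm at 5.16 and 6.62 lies farthest to the right in the second.

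In non-myelinating glia-like nuclei, Lsamp stood at 27.9 (27.0 to 28.7) for females and 16.8 (16.3 to 17.3) for males, above nodose-like nuclei by 0.84 and 0.50 on the log2 scale. Ntm was at 3.33 and 1.97, against 0.989 and 0.274 in macrophage-like nuclei. Negr1 was at 6.09 and 4.16, above the 4.43 and 3.15 of macrophage-like nuclei. Its log2 ratio to nodose-like nuclei was -2.15 and -2.63. With the macrophage-like level subtracted, the log2 ratio over both libraries went from -2.42 to -4.17. The subtraction took the same part of the UMIs from each class. Whether free RNA makes up the same part of nuclei of unlike depth was not tested. Thinned to 1000 UMIs, 29.7% (27.3 to 32.2) of these nuclei had a Negr1 UMI against 24.6% (19.6 to 30.2) of macrophage-like nuclei, intervals that overlap. By contrast, 71.0% had an Lsamp UMI. The glial clusters were unequal. Cluster 9, with Ptprz1, a receptor phosphatase of glia, and Grid1 among its leading genes, had Lsamp at 32.2 and Ntm at 4.41. Clusters 3 and 16 had Lsamp at 14.2 and 16.2 and Ntm at 1.23 and 1.94, and Fabp7 and Ednrb, genes of satellite glia, were among the leading genes of cluster 3. In cluster 9 the female library was higher, with Lsamp at 40.4 and 23.4. In cluster 3, which was 546 male and 60 female nuclei, Lsamp was at 14.5 (13.1 to 15.9) for females and 14.2 (13.6 to 14.8) for males.

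Of the members, 1 was at least 2-fold higher and 1 lower in non-myelinating glia-like than in nodose-like nuclei in both libraries, where 13.4% and 11.4% of genes were. The myelinating Schwann cell-like nuclei were low in every member. Negr1 was at 2.21 and 2.47, Lsamp at 4.56 and 3.77, Opcml at 0.566 and 0.662 and Ntm at 0.574 and 0.141 for females and males. Against nodose-like nuclei, 0 members were at least 2-fold higher and 4 were lower, where 14.7% and 14.1% of genes were. One of the 4 was Iglon5, which rests on 11 UMIs in this class. In both libraries, Negr1, Ntm and Opcml were below their macrophage-like levels. Opcml was close to it, against 0.586 for females and 0.822 for males. The macrophage-like levels rest on few UMIs, 16 female and 24 male for Opcml and 27 and 8 for Ntm, and these differences were not tested. Over both libraries, Lsamp at 4.09 (3.87 to 4.32) against 3.58 (3.10 to 4.10) had overlapping intervals. With the macrophage-like level subtracted, the log2 ratio of Lsamp to nodose-like nuclei went from -1.67 to -3.96, with the same limit on depth.

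Outside neurons and glia, adipocyte-like nuclei had the highest Negr1 of the named classes. Adipocyte-like nuclei, which carry Pparg and Plin1, had Negr1 at 10.1 (9.24 to 11.1) over 114 female and 8.21 (6.87 to 9.75) over 45 male nuclei. Thinned to 1000 UMIs, 54.7% (46.6 to 62.6) of them had a Negr1 UMI, above the 24.6% of macrophage-like nuclei. Fibroblast-like, barrier fibroblast-like and endothelial cell-like nuclei had Negr1 at 2.29, 2.08 and 2.14, and Lsamp at 8.31, 6.25 and 4.51. The order of Lsamp over the classes was granule-like at 45.3, jugular-like at 40.8, sympathetic neuron-like at 39.0, unnamed neuron-like at 33.5, unnamed at 21.8, non-myelinating glia-like at 21.1 and nodose-like at 13. Of these levels over both libraries, only the unnamed (21.3 to 22.3) and non-myelinating glia-like (20.6 to 21.5) nuclei had overlapping intervals. The first classes were not set apart in this order within each library. Granule-like and jugular-like nuclei had Lsamp at 45.6 and 45.7 for females and at 39.4 and 38.4 for males. Sympathetic neuron-like nuclei had it at 65.3 over 7 female and 36.5 over 136 male nuclei. For Negr1 the order was granule-like at 29.8, nodose-like at 26.2, unnamed neuron-like at 11.5, adipocyte-like at 9.64, unnamed at 9.21, non-myelinating glia-like at 4.90 and macrophage-like at 3.77. The unnamed cluster 15, which holds the pituitary genes Pou1f1 and Pomc, had Negr1 at 14.6, Lsamp at 32.0 and Opcml at 4.14. Its Ntm was at 13.6 in 221 female and 1.97 in 110 male nuclei. The unnamed class, of which cluster 15 is a part, had 164 Gabra6 UMIs in female and 0 in male nuclei. The part of granule-like nuclei or their RNA in these levels was not tested.

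Male nuclei had less Ntm than female nuclei of the same class in 11 of the 12 classes with enough UMIs for a ratio, and more in 0, by intervals that exclude 0. Male nuclei also had less Lsamp in 11 and less Negr1 in 10 of 13 classes, and more in 0, and less Opcml in 7 and more in 1 of 12. For Ntm in nodose-like nuclei the log2 ratio of male over female was -2.29 (-2.65 to -1.94), and in macrophage-like nuclei it was -1.85 (-3.20 to -0.67). Gabra6, which marks the granule-like nuclei, also had more UMIs outside them in the female library, with 16 in female and 1 in male nodose-like nuclei and 4 and 0 in macrophage-like nuclei. Of female nuclei 9.76% were granule-like, and of male nuclei 0.467%. The part of their RNA in the female Ntm levels was not tested. Negr1 in nodose-like nuclei was nearly level between the libraries, with a log2 ratio of -0.06 (-0.10 to -0.02), and Lsamp was at -0.39 (-0.44 to -0.34). In jugular-like nuclei Negr1 was at -1.06 (-1.21 to -0.90). Sex, library and pool cannot be told apart in these ratios.

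The number of members found together in a nucleus differed by class. After thinning to 1000 UMIs, 83.9% of granule-like nuclei had UMIs of 3 or more members, against 2.87% of nodose-like and 5.98% of jugular-like nuclei. At 2000 UMIs these shares were 96.1%, 7.13% and 16.6%. Shallower nuclei were left out there, 137 granule-like, 16 nodose-like and 9 jugular-like, so that the sets of nuclei differ between the 2 depths. A single member was found in 44.0% of nodose-like and 54.0% of jugular-like nuclei, and none in 19.0% and 12.9%. Negr1 and Lsamp occurred together in 30.0% (27.0 to 33.2) of nodose-like nuclei, where the product of their shares is 26.8%, and in 7.77% (5.58 to 10.5) of jugular-like nuclei, where it is 7.95%. Lsamp and Opcml occurred together in 2.75% (1.77 to 4.07) of nodose-like nuclei, where the product is 4.13%. Lsamp and Ntm met in 11.1% (9.46 to 12.9) of non-myelinating glia-like nuclei, where the product is 9.05%, in a class whose cluster 9 was high in both. At 2000 UMIs, Negr1 with Lsamp and Lsamp with Opcml stood at 41.4% (38.0 to 44.7) and 6.43% (4.88 to 8.28) of nodose-like nuclei, with products of 39.7% and 7.55% inside the intervals. Lsamp with Ntm then stood at 21.7% (18.9 to 24.8) of 792 non-myelinating glia-like nuclei, with a product of 20.4%, also inside the interval. This left out 584 shallower nuclei of the class, so that it is not a share of the same nuclei as at 1000 UMIs.

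**Figure D4:**
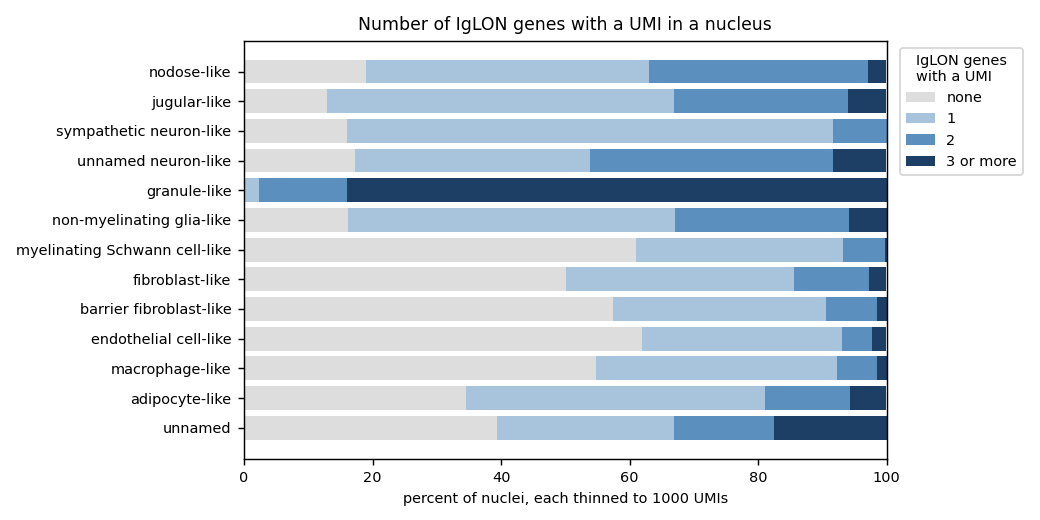
Share of nuclei (horizontal axis, percent), each thinned to 1000 UMIs, in which none, 1, 2 or at least 3 of the 5 IgLON genes had a UMI, for each class. At least 3 members were found in 83.9% of granule-like nuclei and in 5.98% of jugular-like nuclei, and most myelinating Schwann cell-like nuclei (61.0%) had none.

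Transcripts from the opposite strand within the members were counted too. Gm15577, an antisense gene within Negr1, had 0.948 UMIs per 10000 UMIs in female and 1.06 in male nodose-like nuclei, and 0.0724 and 0.0471 in jugular-like nuclei. Its UMIs were 3.91% of the Negr1 UMIs in nodose-like and 2.98% in jugular-like nuclei. Gm48091, antisense to the 3′ part of Opcml, went the other way like its host, at 0.211 (0.183 to 0.240) in nodose-like and 0.475 (0.425 to 0.528) in jugular-like nuclei. Gm28750 within Lsamp was at 0.0931 and 0.296. The sources used here do not say whether the counting used the strand, so reads of a member and of its antisense partner may not have been told apart.

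The genes whose pattern was most like that of each member were sought among 7703 genes with at least 1000 UMIs, over 31 clusters that share libraries and differ in depth. For Negr1 they were Gm15577 (Pearson r = 0.94), Ntrk2, the receptor of BDNF (0.85), and Neto2, an auxiliary subunit of kainate receptors (0.83). For Lsamp they were Trim9, a ubiquitin ligase of neurons (0.87), Gm10125 (0.77) and Gpr137c (0.77). For Ntm they included Msra (0.75) and Adarb2 (0.75), and for Opcml they were Gm48091 (0.90), Sel1l3 (0.80) and Dcbld1 (0.79). For Iglon5, whose level rests on few UMIs, they were Garnl3 (0.79), Slc45a1 (0.78) and Mdga2 (0.78). Mdga2 belongs to the list of other adhesion genes below. Between members, r was highest for Lsamp and Iglon5 (0.61) and for Lsamp and Opcml (0.60) over the 31 clusters, and for Negr1 and Lsamp it was 0.17. Over the 16 clusters of neuron-like nuclei these were 0.45, 0.36 and -0.41, and the highest was 0.64 for Ntm and Opcml.

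Other immunoglobulin adhesion genes were compared between the same classes. Of 23 such genes, 2 were at least 2-fold higher and 3 lower in nodose-like than jugular-like nuclei in both libraries. Of all genes 6.53% were higher and 5.58% lower by that rule. The median log2 ratio was 0.10 against 0.02 over all genes. Ncam2, a neural adhesion molecule, was at 12.2 and 1.78 in the 2 classes, a log2 ratio of 2.80 for females and 2.78 for males, and Nrcam was at 1.97 and 0.559. Lower in nodose-like nuclei were Sdk2 at 0.0456 and 0.710 and Sdk1 at 0.929 and 3.42, the sidekick genes of synaptic adhesion, and Nectin1 at 0.0960 and 0.455. Between granule-like and nodose-like nuclei, 5 of the 23 were higher and 5 lower, where 12.7% and 4.11% of all genes were. The median was 0.07 against 0.00 over all genes. Cadm2 at 33.9 against 4.04 was higher, as were Dscaml1 (1.36 and 0.193), Sdk2 (0.253 and 0.0456), Kirrel3 (23.3 and 9.63) and Cadm3 (2.43 and 1.07). Lrfn5 (0.393 and 5.27), Ncam2 (1.57 and 12.2), Mdga2 (1.66 and 6.26), Dscam (1.05 and 2.79) and Cadm1 (8.22 and 18.3) were lower. In non-myelinating glia-like nuclei 4 were higher and 5 lower than in nodose-like nuclei, where 13.4% and 11.4% of all genes were, with a median of -0.49 against 0.18 over all genes. In myelinating Schwann cell-like nuclei 4 were higher and 10 lower, where 14.7% and 14.1% of all genes were, with a median of -0.93 against 0.16.

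The genes that make the GPI anchor were grouped with known proteases and partners of the family. Of these 13 genes, 0 were at least 2-fold higher and 1 was lower in nodose-like than jugular-like nuclei, with a median of 0.01. The gene was Pigk, a subunit of the transamidase that attaches the anchor, at 1.12 in nodose-like and 2.96 in jugular-like nuclei. Between granule-like and nodose-like nuclei 0 were higher and 0 lower, with a median of 0.28 and all genes at 0.00. In non-myelinating glia-like nuclei 1 was higher, and in myelinating Schwann cell-like nuclei 1 was higher, against 0 lower in both. The medians were 0.47 and 0.78, where all genes had 0.18 and 0.16, and the shares of all genes called were those given for the adhesion genes. The former was Pigt, another subunit of the transamidase, at 0.232 against 0.110 in nodose-like nuclei, and the latter was Adam10, a membrane protease, at 5.75 against 1.22.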

How the data were processed

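The authors deposited one matrix of whole UMI counts, built from 10x 3′ libraries with Cell Ranger against mm10 plus a transgene sequence, with intronic reads counted. Debris was removed with DIEM, and the libraries were merged with mapped reads evened out between them by sampling, so that some sequenced molecules are missing from the counts. Neither the annotation nor the treatment of overlapping genes is stated. Nuclei carry a library number, which was tied to a sex by the number of nuclei stated. Gene positions are from GENCODE M21, of the same build, and promoters from RefSeq (GRCm38.p6).

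The members and gene lists were chosen with earlier results of these data known. Clusters were rebuilt (Python 3.11.15, igraph 0.11.9) without the 5 members, 6 sex-linked genes and 115 genes that the study lists as differing by sex, from 23478 genes, 10 principal components and 243 neighbours, into 20 clusters. The 2274 neuron-like nuclei were split again into 16. A cluster took the name of the marker list with the highest mean log2 fold if at least 3 markers reached 1.5-fold. It stayed unnamed if more markers of another type were among its 10 leading genes, or if at least 2 lists of other types passed a mean log2 fold of 0.8, as in cluster 15, where the pituitary list led. A neuron cluster was nodose-like or jugular-like if at least 75% of the nuclei that had a UMI of just one of a pair of marker genes had the marker of that type. Some genes and the results that need them, including another way of splitting the neurons and 1 gene most like Ntm, are not reported here. A neuron cluster stayed unnamed if a list of another cell type passed a mean log2 fold of 0.8 with at least 3 markers. It also stayed unnamed if neither marker of the pair reached 75%, as in neuron 6. These limits, and the joining of the non-myelinating glia, were chosen with the clusters in view. Doublets were not called, and the study states that possible doublets had been removed.

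A level is the summed UMIs of a gene per 10000 UMIs of a class, with an exact 95% Poisson interval. A ratio has the exact conditional binomial interval of both counts, and is not given where a count is 3 or fewer. For counts of genes over lists, 0.5 UMIs were added, and a gene with at least 20 UMIs over both classes counted if it was at least 2-fold different in each library. Nuclei were thinned to 1000 UMIs for shares, leaving out 19 shallower nuclei. As each sex has 1 library, there are no tests and no p-values. Named genes were the members, list genes past 2-fold in both libraries in the first 2 comparisons, and the 3 genes of highest Pearson r with each member on log2 (level + 0.05). Pigt and Adam10 were named after their values were seen, as were the antisense genes and Gabra6. The count functions were tested on simulated data.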

Additional observations from a re-analysis of the deposited data

Results flagged for a closer look

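Ntm in myelinating Schwann cell-like over nodose-like nuclei was on opposite sides of 0 in the libraries, at -0.21 in the female (-0.62 to 0.18) and 0.05 in the male library (-0.63 to 0.69) on the log2 scale. Both intervals hold 0, and the difference was not tested.

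Opcml was higher in male than female endothelial cell-like nuclei, with a log2 ratio of male over female of 0.92 (0.28 to 1.58), from 32 female and 63 male UMIs. It was lower in males in 7 classes, at the most -2.26 in unnamed nuclei, so that classes went opposite ways. With 1 library per sex this difference was not tested.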

How the results depend on the processing

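No paired analysis was possible because each sex had 1 library and no result comes from a test. All log2 ratios of Negr1, Lsamp, Opcml and Ntm between nodose-like and jugular-like, granule-like and nodose-like, and non-myelinating glia-like and nodose-like nuclei kept their direction in the alternatives that gave a value. For nodose-like over jugular-like, Negr1 (3.81 pooled) was 3.24 for females and 4.24 for males. Lsamp (-1.65) was -1.70 as a mean over nuclei, -1.55 and -1.69 in the female and male library, -1.81 with clusters scaled within each library and -1.95 after subtraction of the macrophage-like level. Opcml (-1.53) was -1.63, -1.65 and -2.15 as a mean over nuclei, with scaled clusters and after subtraction. Subtraction also moved non-myelinating glia-like over nodose-like from -2.42 to -4.17 for Negr1 and from -0.54 to -1.14 for Opcml. Ntm in granule-like over nodose-like nuclei (6.28) was 6.75 as a mean over nuclei, 5.16 and 6.62 in the female and male library and 6.72 with scaled clusters. After subtraction, Negr1 in jugular-like, Ntm in nodose-like, and Negr1 and Opcml in myelinating Schwann cell-like nuclei were at or under 0, so no ratio was given, nor one for Iglon5 where a library had 3 UMIs or fewer. Macrophage-like nuclei were shallower than nodose-like and jugular-like nuclei. Whether their level fits nuclei of greater depth was not tested, so a level at or under 0 is not read as absence. With the female library alone, 1 member was at least 2-fold lower in granule-like than nodose-like nuclei, where both libraries gave 0. At 1.5-fold, 6 adhesion genes were higher in nodose-like than jugular-like and 7 in non-myelinating glia-like than nodose-like nuclei. Of the GPI list, 1 was then lower in granule-like than in nodose-like nuclei. In non-myelinating glia-like nuclei 6 were higher than in nodose-like nuclei, and in myelinating Schwann cell-like nuclei 6 were. The share of all genes at 1.5-fold is not given, so nothing is read from these counts. Of 114 alternatives for male over female ratios, 4 turned the direction: Opcml as a mean over nuclei was 0.06 in nodose-like and 0.08 in jugular-like nuclei, Negr1 was 0.14 in unnamed neuron-like nuclei, and Ntm was 0.25 in fibroblast-like nuclei of over 2000 UMIs. The cause of these changes was not tested. Levels of single members stayed within the interval in 190 of 385 alternatives. Depth limits Iglon5, and the 23 male granule-like nuclei limit that class.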
